A study of Mus musculus with 2 samples.

Results

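Integrins, laminins and other basement membrane genes were compared between fluorescent chondrocytes and the remaining sorted cells of mouse embryos. The set has 41 genes listed by symbol, and the list was made with earlier results of these data known. Of these genes 40 were matched by 86 probe sets that carry a single gene symbol, among 18193 such genes on the array. Itga11 is not analysed here. The set comprises 24 integrin subunit genes, 10 laminin chain genes and 6 others, namely the nidogen genes Nid1 and Nid2, perlecan (Hspg2), agrin (Agrn), dystroglycan (Dag1) and the integrin-linked kinase gene Ilk.

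Both samples came from Col2a1-Venus-Tg embryos of the C57Bl/6 background, so the control cells carried the transgene too. In these mice the cartilage collagen gene Col2a1 gives the name to the reporter that labels chondrocytes with Venus, a variant of green fluorescent protein. Flow cytometry separated cells with Venus fluorescence from cells without it, and the total RNA of each sorted population was measured on 1 Affymetrix array. The age of the embryos, the number pooled and any treatment are not stated in the sources used here. Each population was measured once, so no value below has a replicate error, the populations could not be tested against each other, and all differences are those of a single pair of arrays.

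Integrins are cell surface receptors made of an alpha and a beta subunit, and the pair decides which matrix protein is bound. Basement membranes are thin sheets in which networks of laminin, each a trimer of an alpha, a beta and a gamma chain, and of type IV collagen are joined by nidogens and by heparan sulfate proteoglycans such as perlecan. Mature cartilage has no basement membrane sheet, but chondrocytes are surrounded by a pericellular matrix that contains perlecan, and they bind the surrounding type II collagen through integrins.

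A gene was called measured when a probe set reached a signal of 22.5, the median of all non-control signals, on at least 1 array. Lower signals were raised to this floor before ratios were taken, so that a fold from below it is a lower bound, written "at least". Log2 ratios divide the Venus-positive by the Venus-negative signal, as deposited. The Venus-positive array was dimmer, with a median log2 ratio of -0.33 over 11789 measured genes and of -0.27 over 18 spiked hybridisation controls, which ranged from -0.56 to -0.10. Relative log2 ratios have the median of all measured genes subtracted. The Gapdh control probe sets had a 3′ to 5′ signal ratio of 0.759 on the Venus-negative and 0.740 on the Venus-positive array, and those of Actb had 1.33 and 1.64. Col2a1 was 13.9-fold higher in Venus-positive cells and all 10 genes of a cartilage marker list were over 2-fold higher. These values describe the sort and are no independent check of it. Col2a1 names the reporter, and the list was chosen with earlier results of these data known. On the Venus-negative array Col2a1 still had a signal of 606, and only 1 of the 10 markers was below the floor there.

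Of the 40 genes 28 were measured, and the other 12 stayed below the floor on both arrays. In Venus-positive cells 2 of the 28 (7.14%) were higher by 2-fold or more, Itga10 and Hspg2, against 2.79% of all measured genes. Lower by 2-fold or more were 7 genes, Itga4, Lamb1, Itga8, Nid1, Itga3, Itgb8 and Itga6, and 11.6% of all measured genes. Relative to the median gene, 3 were higher (Lamb2 in addition) and 5 lower (without Itga6 and Itgb8), against 5.06% and 6.45% of all measured genes. Genes measured only because of one bright array had to differ, so these counts are a description. The median log2 ratio was -0.38 for the 14 measured integrin genes, -0.56 for the 8 laminin chain genes and 0.23 for the 6 other genes, against -0.33 for all measured genes.

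**Figure D1:**
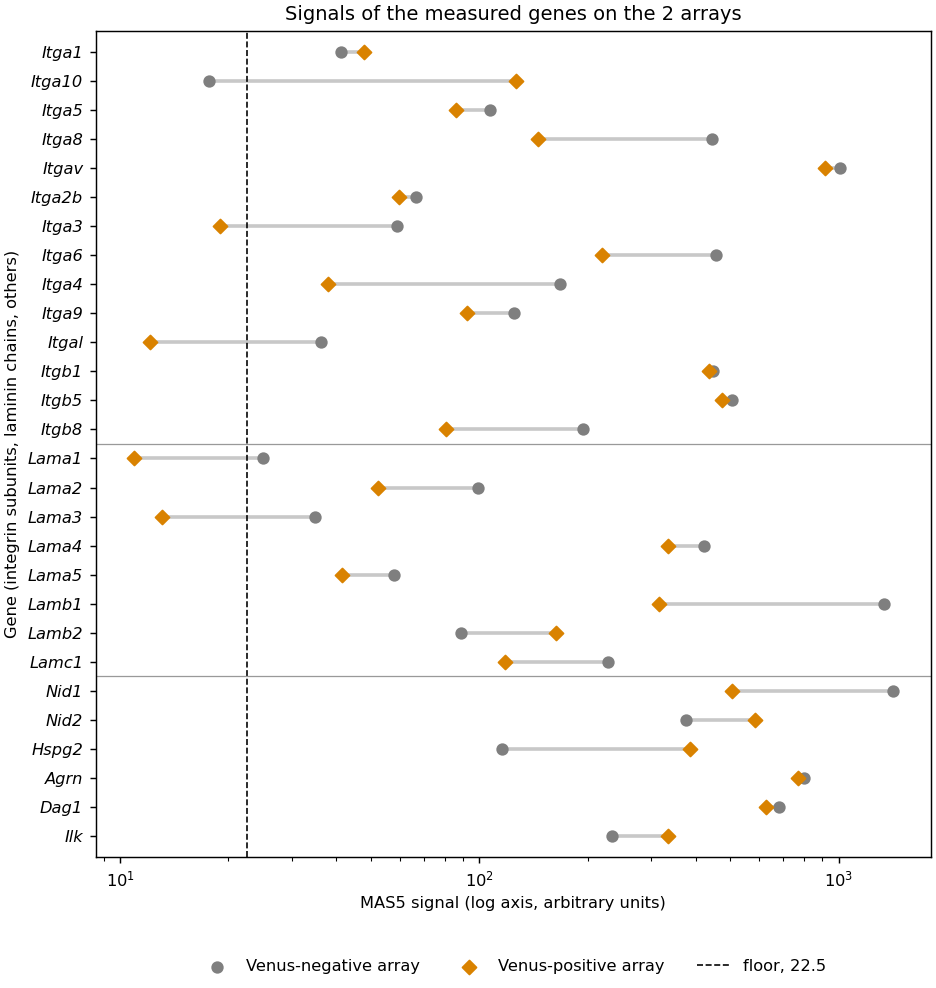
MAS5 signal (log axis, arbitrary units) of the 28 measured genes on the Venus-negative array (grey circles) and the Venus-positive array (orange diamonds), with 1 value per array and the floor of 22.5 as a dashed line. Itga10 crosses the floor upwards, from 17.7 to 126, and Lamb1 is at 1342 and 316, while the points of Itgb1, Agrn and Dag1 nearly coincide.

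Start-site sequences of 4 genes are shown, since Itga10 and Hspg2 were the 2 genes past 2-fold higher and the laminin beta chain genes Lamb2 and Lamb1 differed in opposite directions. Each runs 5′ to 3′ on the gene's own strand, from 250 bases before to 50 after a start in RefSeq (GRCm38.p6), a table in which 28 of the 41 listed symbols were found. All 4 lie on the plus strand, at chr3:96645334-96645633 for Itga10, chr4:137468553-137468852 for Hspg2, chr9:108479612-108479911 for Lamb2 and chr12:31265043-31265342 for Lamb1. Capitals mark matches on either strand to ACAAT (the SOX core), TGTGGT (the RUNX core), GGGCGG (the GC box) or TATAAA (the TATA box).
Itga10: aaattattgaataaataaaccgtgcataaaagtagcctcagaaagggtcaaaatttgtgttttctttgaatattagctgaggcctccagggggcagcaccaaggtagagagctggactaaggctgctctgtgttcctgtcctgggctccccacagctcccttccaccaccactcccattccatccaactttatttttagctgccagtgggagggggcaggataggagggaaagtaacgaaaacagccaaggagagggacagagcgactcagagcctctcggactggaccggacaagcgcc
Hspg2: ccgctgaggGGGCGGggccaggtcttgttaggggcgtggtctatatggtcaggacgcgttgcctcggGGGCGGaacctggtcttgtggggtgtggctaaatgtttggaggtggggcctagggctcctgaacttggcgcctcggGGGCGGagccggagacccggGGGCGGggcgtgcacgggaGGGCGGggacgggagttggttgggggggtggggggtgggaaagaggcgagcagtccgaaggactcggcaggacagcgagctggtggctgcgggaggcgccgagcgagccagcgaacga
Lamb2: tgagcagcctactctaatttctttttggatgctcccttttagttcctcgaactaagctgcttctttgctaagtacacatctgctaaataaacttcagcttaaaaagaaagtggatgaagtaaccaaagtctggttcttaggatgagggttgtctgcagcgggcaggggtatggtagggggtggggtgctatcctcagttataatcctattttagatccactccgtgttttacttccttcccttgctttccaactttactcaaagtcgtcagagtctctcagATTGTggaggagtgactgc
Lamb1: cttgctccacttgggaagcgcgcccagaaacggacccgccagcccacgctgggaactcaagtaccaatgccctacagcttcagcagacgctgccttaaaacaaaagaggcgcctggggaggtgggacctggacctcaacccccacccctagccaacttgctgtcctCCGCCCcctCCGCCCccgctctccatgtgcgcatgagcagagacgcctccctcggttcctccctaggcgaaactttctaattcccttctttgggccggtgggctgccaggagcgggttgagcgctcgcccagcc
None of the 4 motifs was matched in the Itga10 window. The GC box occurred 5 times in the Hspg2 window and 2 times in that of Lamb1, and the SOX core 1 time in that of Lamb2, with no overlap between different motifs. Among 32851 RefSeq windows of the same length, 31.0% held the SOX core, 16.8% the RUNX core, 35.7% the GC box and 13.6% the TATA box. The Hspg2 and Lamb1 windows held 27 and 18 CpG dinucleotides, and those of Itga10 and Lamb2 6 and 4, where the median window held 7. A match describes letters only, and its absence says nothing about a factor.

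Among the collagen-binding integrin subunits, Itga10 was the integrin gene with the highest ratio. Itga10 encodes the alpha10 subunit, which pairs with beta1 into a receptor for type II collagen and is found chiefly on chondrocytes. Its signal was 17.7 on the Venus-negative and 126 on the Venus-positive array, at least 5.61-fold higher (log2 ratio 2.49). The value rests on 1 probe set of moderate signal, and with the floor raised to the 75th percentile (114) the log2 ratio was 0.15. Itga1, whose product also pairs with beta1 and binds type IV collagen, had signals of 41.2 and 47.7, a log2 ratio of 0.21. Itga2, the subunit of the platelet and epithelial collagen receptor, was at 12.7 and 1.14, below the floor on both arrays.

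The subunits that recognise the RGD motif of fibronectin, vitronectin and related proteins were close to the median gene, apart from Itga8. Itgav, the most versatile alpha subunit, had signals of 1011 and 916 (log2 ratio -0.14). Itga5, the fibronectin receptor subunit, had 107 and 85.9 on its brightest probe set, a log2 ratio of -0.32, and a second probe set was level at 32.6 and 32.5. The third, at 25.1 and 14.3, was below the floor in Venus-positive cells and gives only a bound. Itga2b, which encodes the platelet subunit, had 66.7 and 59.6. These ratios of Itgav, Itga5 and Itga2b became slightly positive relative to the median gene, at 0.19, 0.01 and 0.17. Itga8, the nephronectin receptor subunit of mesenchymal and smooth muscle cells, differed from them. Its signal was 443 in Venus-negative and 146 in Venus-positive cells, 3.04-fold lower, and its second probe set was at 44.3 and 14.8, the latter below the floor, which bounds its log2 ratio at -0.98 or lower. In a list of smooth muscle and pericyte markers 5 of the 8 measured genes were also over 2-fold lower. Their summed signal was 2643 in Venus-negative and 324 in Venus-positive cells, and Myh11, Actg2, Kcnj8, Abcc9 and Cnn1 were below the floor in the latter. The part of these cells in the Itga8 value was not tested, and in sorted bulk RNA fewer cells of a type and less RNA per cell cannot be told apart.

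Both measured laminin-binding alpha subunits were lower in Venus-positive cells. Itga6, the laminin receptor subunit of epithelia and many stem cells, had signals of 455 and 219.6, 2.07-fold lower, and its other probe set had 177 and 95.3 (log2 ratio -0.89). Relative to the median gene Itga6 was 1.65-fold lower, so its 2-fold call depends on the scale. Itga3, which pairs with beta1 in skin, kidney and lung, had 59.0 and 18.9, at least 2.62-fold lower. Its 2 other probe sets were below the floor on both arrays. Itga7, the laminin receptor subunit of muscle, was at 2.23 and 6.51, below the floor. Markers of epithelia and epidermis were lower as well, in 10 of 13 measured genes by at least 2-fold, with a summed signal of 2209 in Venus-negative and 571 in Venus-positive cells. Krt14, Krt15, Trp63, Esrp1 and Grhl3 were below the floor in Venus-positive cells. Their part in the Itga3 and Itga6 values was not tested.

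Itga4 had the lowest ratio of the integrin genes that reached the floor on both arrays. Its product, the alpha4 subunit of leukocytes and early mesenchyme, binds Vcam1 and fibronectin. The signal was 168 in Venus-negative and 37.9 in Venus-positive cells, 4.43-fold lower, and a second probe set, at 50.5 and 15.7, gave a bound of -1.17 or lower on the log2 scale. With the floor raised to 114 the log2 ratio of Itga4 was -0.56. Its paralog Itga9, a receptor subunit for tenascin and Vcam1, had 125 and 92.2, and its 3 probe sets spanned log2 ratios from -0.43 to 0.05, so that no direction holds for all of them. The ligand gene Vcam1 was at 1204 and 337, 3.58-fold lower.

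Subunits of leukocyte integrins were at or below the limit of measurement. Itgal, the alpha chain of the lymphocyte receptor for Icam1, had signals of 36.2 and 12.1, at least 1.61-fold lower. Itgae, Itgam and Itgax, the alpha chains of other lymphocyte and myeloid integrins, stayed below the floor on both arrays. Their signals were 18.7 and 14.2 for Itgae, 8.87 and 1.14 for Itgam and 2.48 and 2.22 for Itgax. The leukocyte beta chain gene Itgb2 was below the floor too, at 19.1 and 2.21. Of 12 leukocyte and macrophage markers, all measured, 11 were over 2-fold lower in Venus-positive cells, led by Csf1r (758 in Venus-negative and 48.0 in Venus-positive cells) and Mrc1 (13.1-fold). The summed signal of the list was 2468 in Venus-negative and 311 in Venus-positive cells, and 7 of its genes, Ptprc, Cd53, Tyrobp, Fcer1g, Aif1, Cd52 and Fcgr3, were below the floor in the latter. The part of leukocytes in the Itga4 and Itgal values was not tested.

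Of the 8 beta subunit genes 3 were measured, and 2 of them were nearly level. Itgb1, the common partner of the collagen-, laminin- and fibronectin-binding alpha subunits, had signals of 448 and 437. Its 3 measured probe sets gave log2 ratios from -0.06 to 0.09, which is above the median gene by 0.30 for the brightest. Itgb5, the vitronectin receptor partner of alphav, had 504 and 473, and its 4 probe sets ran from -0.11 to 0.12. Both genes thus lay on either side of 0 depending on the probe set and on the scale. Itgb8, whose pairing with alphav activates latent TGF-beta, was at 195 and 80.8, 2.41-fold lower on its single probe set and 1.92-fold lower relative to the median gene. Itgb3 (19.3 and 1.46), Itgb4 (5.24 and 4.39), Itgb6 (9.19 and 6.33) and Itgb7 (3.21 and 13.95) stayed below the floor together with Itgb2. They encode the platelet and osteoclast, hemidesmosomal, epithelial and lymphocyte beta subunits, and no ratio is given for them.

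**Figure D2:**
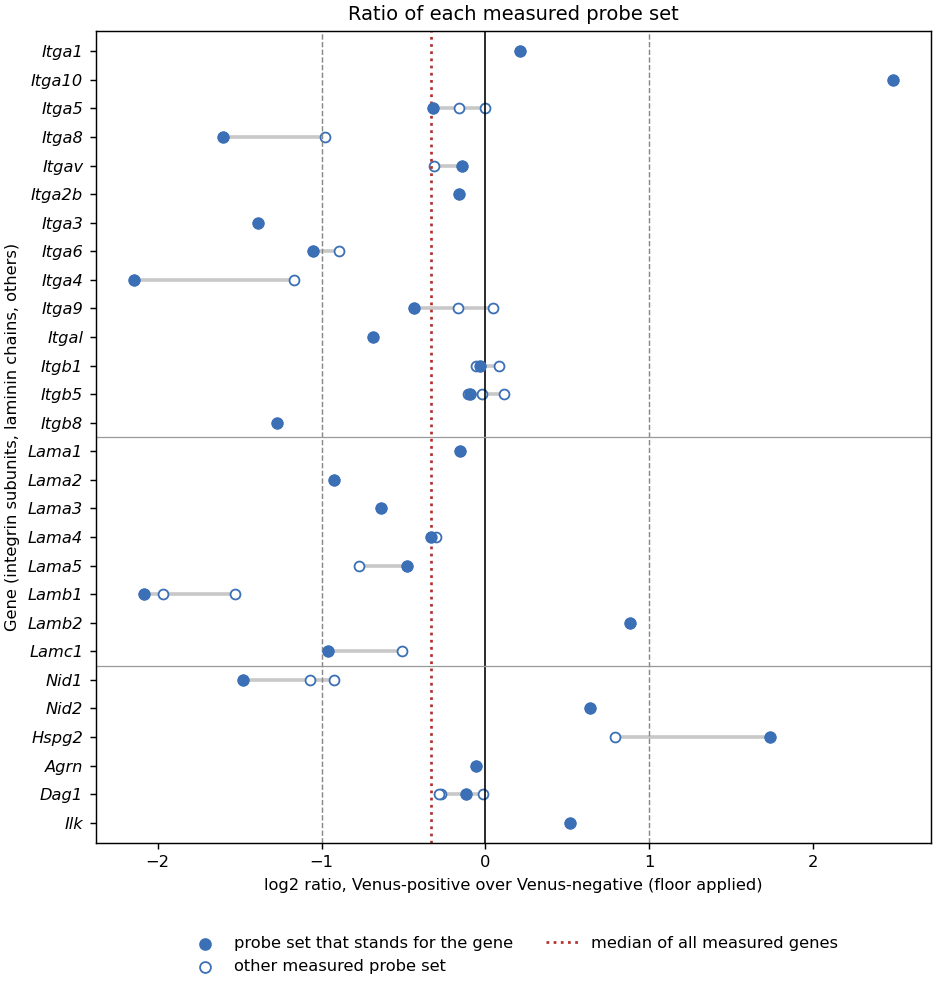
Log2 ratio (positive divided by negative signal) for every measured probe set of the 28 measured genes, filled where the probe set stands for the gene, with dashed lines at 2-fold and a dotted line at the median of all measured genes (-0.33); where one signal was below the floor the point is a bound. The 3 probe sets of Lamb1 lie between -2.08 and -1.53 and the single probe set of Lamb2 at 0.88, and the 2 probe sets of Hspg2 are at 0.79 and 1.74.

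The laminin chains differed most between the beta chains. Lamb1, the beta chain of most embryonic laminins, had signals of 1342 in Venus-negative and 316 in Venus-positive cells, 4.24-fold lower. Its other measured probe sets, at 515 against 132 and 92.9 against 32.2, gave log2 ratios of -1.97 and -1.53. All 3 thus lay past 2-fold. Lamb2, the beta chain typical of synapses, kidney glomeruli and vessel walls, had 88.7 and 164, 1.84-fold higher on the deposited scale and 2.32-fold higher relative to the median gene. Its ratio exceeded that of Lamb1 by 2.97 on the log2 scale, a difference from which a common scaling factor of the arrays cancels. Lamb3, the epidermal beta chain, was at 18.4 and 11.3, below the floor.

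No laminin alpha chain gene was called at the 2-fold size, but for Lama1 and Lama3 only a bound could be given. Lama4, the alpha chain of blood vessels and mesenchyme, had the brightest pair of signals, 422 and 336, with a log2 ratio of -0.33 that equals that of the median gene. Lama2, the alpha chain of muscle and nerve sheaths, had 99.3 and 52.2 (log2 ratio -0.93). Lama5, the most widespread alpha chain of later basement membranes, had 57.7 and 41.4 (-0.48), and a second probe set had 47.6 and 27.9 (-0.77). Lama1, the alpha chain of the early embryo, and Lama3, that of epidermis, reached the floor in Venus-negative cells alone, at 25.04 and 34.95, and were at 10.9 and 13.1 in Venus-positive cells, so their log2 ratios of -0.15 and -0.64 are bounds and may be lower. With the floor at the 25th percentile both were past 2-fold lower, at -1.20 and -1.42. Lamc1, the gamma chain that most laminins share, had 228 and 118, 1.94-fold lower, and a second probe set gave -0.51. Lamc3 was below the floor on both arrays, at 12.9 and 6.77. All 5 alpha chain genes and Lamc1 were thus below 0 on the deposited scale, as were 9110 of all 11789 measured genes. Relative to the median gene, Lama4 was at 0.0024 and Lama1 at 0.18, the latter a bound that may be lower.

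Of the 2 nidogen genes, whose products link laminin to type IV collagen, one was lower and the other higher in Venus-positive cells. Nid1 had signals of 1414 and 506, 2.79-fold lower, and a second one, at 184 and 87.5, had a log2 ratio of -1.07. The third, at 42.6 and 15.6, has a bound of -0.92 or lower. Nid2 had 376 and 586 on its single probe set, 1.56-fold higher and 1.96-fold higher relative to the median gene. The log2 ratio of Nid2 exceeded that of Nid1 by 2.12.

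The heparan sulfate proteoglycan genes differed from each other. Hspg2 encodes perlecan, a component of basement membranes and of the pericellular matrix of cartilage. It had signals of 116 in Venus-negative and 387 in Venus-positive cells, 3.34-fold higher. The second probe set had 154 and 267, 1.73-fold higher (log2 ratio 0.79), and it stands for the gene when probe sets that can match several transcripts are left out, which ends the 2-fold call. Agrn, the proteoglycan that organises the neuromuscular junction, was level at 800.2 and 769.8. Dag1, which encodes the laminin and agrin receptor dystroglycan, had 681 and 627, and its 4 probe sets ran from -0.28 to -0.01. Agrn and Dag1 were slightly above the median gene, by 0.28 and 0.21. Ilk, which encodes an adaptor that ties beta integrin tails to actin, had 234 and 336, 1.43-fold higher and 1.80-fold higher relative to the median gene.

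The genes around the members were described from 4 further lists. Among other basement membrane components 18 genes were measured, with a median log2 ratio of -0.86. By 2-fold or more 2 (11.1%) were higher and 8 (44.4%) lower, against 2.79% and 11.6% of all measured genes. Col18a1, the collagen of vascular and epithelial basement membranes, was at 301 and 32.6, 9.24-fold lower. The related Col15a1 went the other way, at 34.5 and 198, 5.74-fold higher. Fras1, an anchor of the embryonic epidermis, was 4.48-fold lower, although another probe set, dim on both arrays, gave only a bound of -0.25 on the log2 scale, and the netrin gene Ntn4 was 3.66-fold lower. The main network collagen genes had signals of 1291 and 362 for Col4a1 and of 523 and 318 for Col4a2, 3.57-fold and 1.64-fold lower. Another probe set of Col4a1 had a log2 ratio of -0.98 with the floor applied, short of 2-fold. Endothelial markers, whose cells lie on such membranes, were at least 2-fold lower in 10 of 11 measured genes. Their summed signal was 1167 in Venus-negative and 258 in Venus-positive cells, and Pecam1, Tek, Plvap, Cldn5 and Robo4 were below the floor in the latter. Skeletal muscle markers were at least 2-fold lower in 12 of 13, with summed signals of 4507 and 423. The part of these cells in the lower signals of Lamb1, Nid1, Lamc1, Lama2 and Col4a1 was not tested.

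Cytoplasmic partners of integrins were near the median gene, with a median log2 ratio of -0.28. Of 24 measured genes 1 (4.17%) was higher and 4 (16.7%) lower by 2-fold or more, against 2.79% and 11.6% of all measured genes. Tns2, a tensin that binds beta integrin tails, was at 44.9 and 323, 7.21-fold higher on its single probe set. Fermt3, the kindlin of blood cells, was at 270.0 and 22.5, 11.98-fold lower, and another probe set gave only a bound of -0.47 on the log2 scale. Parvb, a partner of Ilk, was 2.39-fold lower and the talin gene Tln2 2.37-fold lower. The widely expressed kindlin gene Fermt2, by contrast, had 1165 and 1107. In the dystroglycan complex and its glycosylation enzymes 1 of 11 measured genes was over 2-fold higher, Sspn (sarcospan, 2.18-fold), and 1 over 2-fold lower, Dmd (dystrophin, 2.37-fold). Each is 9.09% of the measured list, where 2.79% of all measured genes were higher and 11.6% lower. The next in size were Sgcb (1.65-fold lower) and Gmppb (1.56-fold higher). Another measured probe set of Sspn and another of Dmd fell short of 2-fold. Their log2 ratios were 0.83 and -0.63 with the floor applied, so both calls depend on the probe set.

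Ligands of integrins outside the basement membrane differed in both directions. Of 15 measured genes 5 (33.3%) were higher and 4 (26.7%) lower by 2-fold or more, with a median log2 ratio of 0.65. The shares of all measured genes were 2.79% and 11.6%. Edil3, a ligand of alphav integrins, was at 149 and 641, 4.31-fold higher, and another probe set gave only a bound of 0.59 on the log2 scale. Ccn2, the matricellular connective tissue growth factor, was at 948 and 3558, 3.75-fold higher. Postn, periostin of the perichondrium and periosteum, was at 3492 and 677, 5.16-fold lower, next to Vcam1 described above. Fibronectin itself (Fn1) had signals of 3148 and 2051, 1.53-fold lower, while another probe set was nearly level (log2 ratio -0.10). In a fibroblast and perichondrium list, which shares Postn, 9 of 12 measured genes were over 2-fold lower, with summed signals of 25463 and 12116, and Dpt and Thy1 were below the floor in Venus-positive cells. Their part in the Postn and Vcam1 values was not tested.

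**Figure D3:**
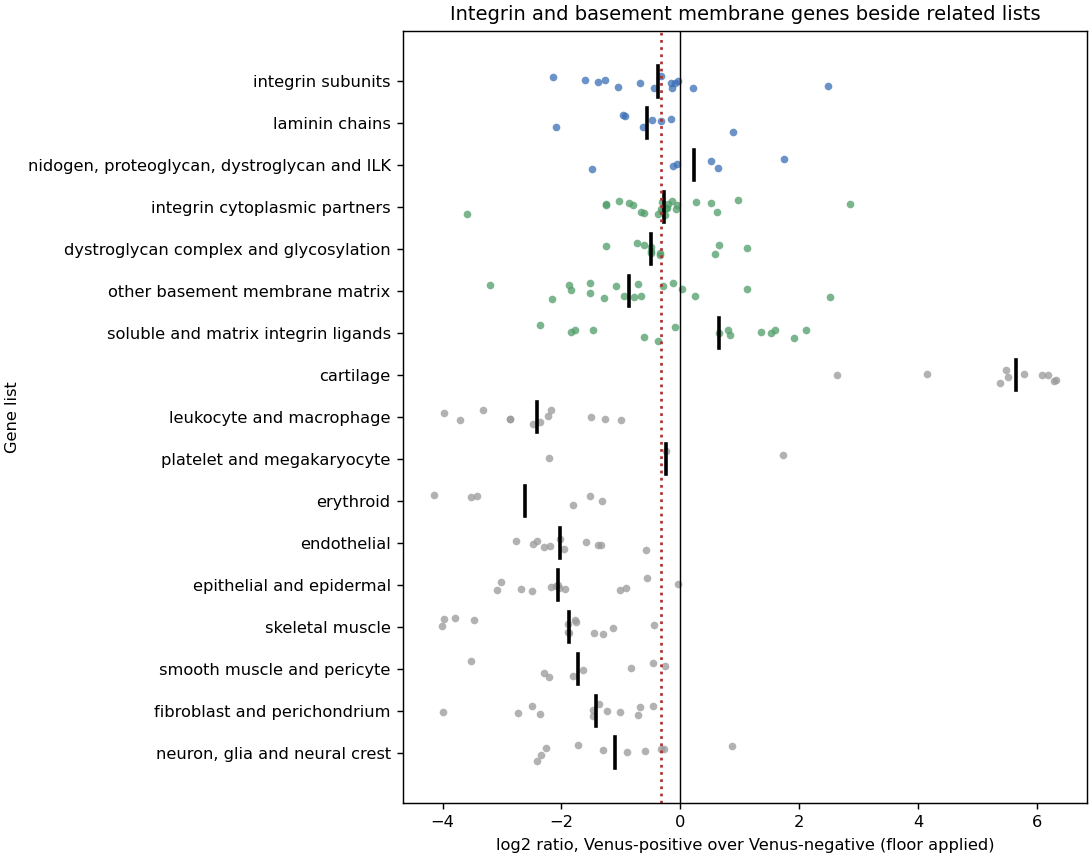
Log2 ratios of the measured genes of each list (points, spread vertically at random for visibility) with the list median as a black bar, for the integrin, laminin and other genes of the set (blue), related lists (green) and cell type marker lists (grey); the dotted line is the median of all measured genes. The set's 3 medians lie at -0.38, -0.56 and 0.23, between the cartilage markers at 5.65 and lists such as the endothelial markers at -2.02.

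The platelet markers were also set beside the platelet subunit gene. Itga2b was nearly level, whereas of 3 measured platelet and megakaryocyte markers Pf4 was at 228 and 49.3, 4.62-fold lower, and Gp1bb at 23.2 and 76.8, 3.31-fold higher. With so few measured genes this list gives no common direction. The erythroid markers were at least 2-fold lower in 6 of 6 measured genes and the neural ones in 5 of 10.

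**Figure D4:**
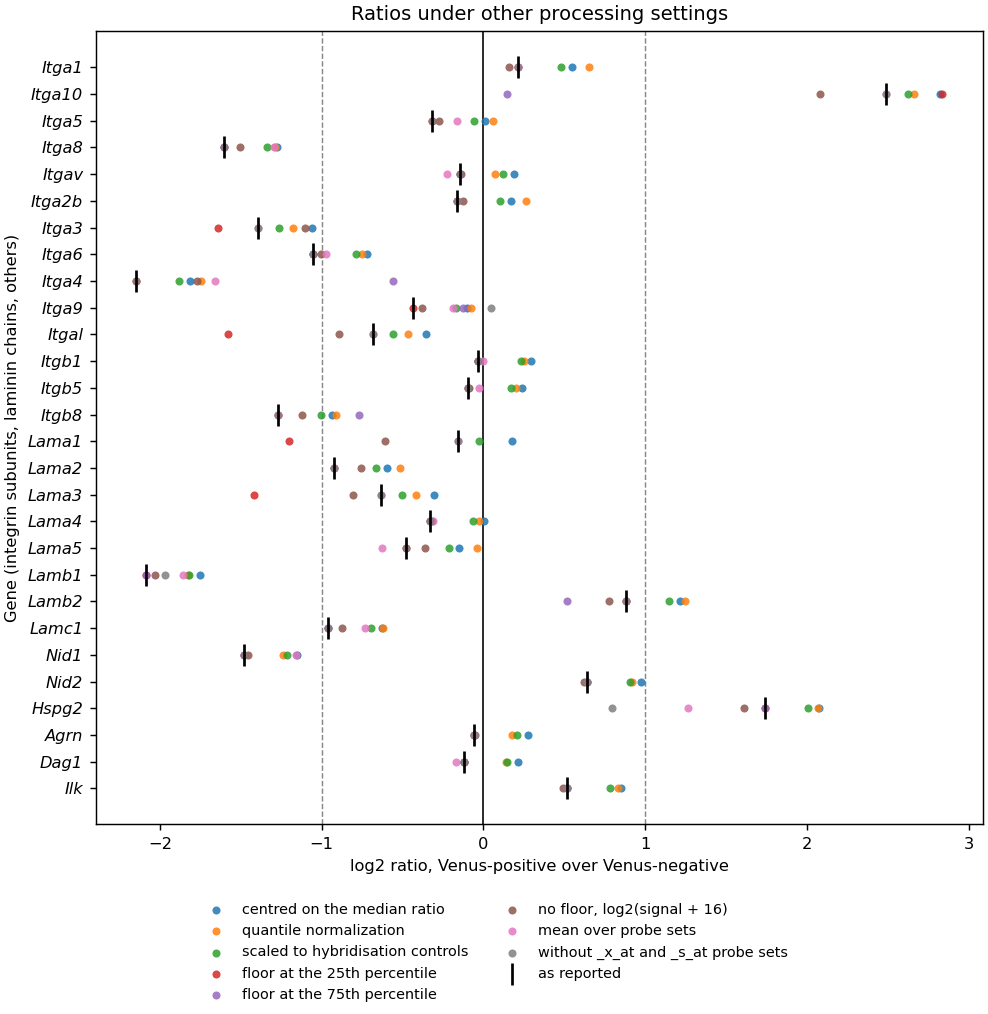
Log2 ratio of the 28 measured genes as reported (black ticks) and under 8 other settings (coloured points, absent where a gene was not measured), with dashed lines at 2-fold. Lamb1, Nid1 and Itga8 stay past 2-fold lower in all 8 settings, whereas Itga10 ranges from 0.15 to 2.84 and Hspg2 from 0.79 to 2.07.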

How the data were processed

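Deposited values are linear signal intensities from MAS5, run by the authors per the submitters' processing notes, for 45101 probe sets on 2 arrays, with 1 array per group and 100 ng of total RNA labelled per the labels' protocols. The scaling target and detection calls are not stated in the sources used here. Arrays have no counting depth, and their number limits the precision.

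The 64 control probe sets were left out. Of the others 34945 carried 1 gene symbol, 932 several and 9160 none in the platform annotation. Gene values come from the first kind alone. Gene identifiers matched RefSeq (GRCm38.p6) for 34741, with 0 differing symbols. Signals below 22.5, the median over both arrays, were raised to it, and each gene was represented by its brightest measured probe set (mean log2 over the arrays). Counts use a fixed size of 2-fold and are no tests. Named genes were all members, Col2a1, the 4 largest absolute log2 ratios of each related list and the 2 largest of a marker list where used. Col4a1, Col4a2, Fermt2, Fn1 and Sox10, the marker genes below the floor and the paralog pairs were chosen after their values were seen. Members and lists were chosen with earlier results of these data known. The gene step was tested on simulated data. Python 3.11.15, numpy 2.4.6 and pandas 2.3.3 were used.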

Additional observations from a re-analysis of the deposited data

How the results depend on the processing

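The 8 alternatives were 3 other scales (ratios centred on their median, quantile normalization, hybridisation controls), 3 treatments of dim signals (floors of 5.19 and 114, the 25th and 75th percentiles, or log2 of signal plus 16 without a floor), averaging a gene's probe sets, and dropping probe sets ending in _x_at or _s_at. Shifts under 0.34, the standard deviation among a gene's probe sets pooled over genes, and counts within 1.5 times were taken as no change. The count of 2 genes at least 2-fold higher became 1 with the floor at the 75th percentile (Hspg2 remained) and 1 without _x_at and _s_at probe sets (Itga10 remained). Of all measured genes 2.44% and 2.86% were higher under these settings, against 2.79% as reported. The count of 7 genes lower became 13 with the floor at the 25th percentile, where 39 genes of the set were measured, and 4 with it at the 75th, where 19 were. Of all measured genes 16.1% and 6.39% were lower at these floors, against 11.6% as reported. The integrin median of -0.38 became -0.0084 with quantile normalization, and the laminin median of -0.56 became -0.93 with the floor at the 25th percentile. Fewer or more dim genes are measured at another floor by construction. Quantile normalization gives both arrays the same distribution of signals, and the median of all measured genes went from -0.33 to -0.017 with it. The integrin median thus stayed near that of all measured genes on both scales. The part of this general shift in the integrin change was not tested. Of 214 single-gene values under the alternatives 190 showed no change, 24 moved and 0 called ones changed sign. Much of this was fixed in advance. Centring subtracts the median log2 ratio of -0.33 from every gene, a shift under the limit of 0.34. No value could therefore move under it, and no called gene could change sign. The hybridisation control median of -0.27 is under the limit too. Averaging cannot change a gene with 1 measured probe set. These counts are therefore no measure of robustness. Signs were the same in every alternative that gave a value for 18 of the 28 genes. The other 10 were Itga5, Itgav, Itga2b, Itga9, Itgb1, Itgb5, Lama1, Lama4, Agrn and Dag1. No paired analysis was possible because each group has 1 array, and with 1 array per group no replicate could be left out. Values near the floor, such as those of Lama1, Lama3 and Itgal, are limited by signal over background.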
